A study of Mus musculus with 20 samples.

Results

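The 36 genes followed here encode the proteins that bring fatty acids into the heart muscle cell and oxidise them in the mitochondrion. Every array probe whose annotated symbol was a listed gene was taken, which gave 74 of 45281 probes for 34 of 19057 named genes. *Acsl1* and *Ucp2* were not analysed here. RNA from ventricular tissue of male mice was hybridised to Illumina bead arrays, a single mouse per array. TAC DKO (6 arrays), TAC CTL (6 arrays), sham DKO (4 arrays) and sham CTL (4 arrays) hearts were compared. DKO mice carried floxed *Dnmt3a* and *Dnmt3b* on both alleles together with the MLC2a-Cre transgene, which is active in heart muscle cells. An exon of the catalytic domain of each gene was thus targeted there and not in the other cells of the ventricle. By the paper, recombination in sorted heart muscle nuclei was incomplete, and *Dnmt3b* RNA in heart muscle cells was near the detection limit. CTL mice carried the same floxed alleles without Cre, so that Cre itself and the deletion cannot be told apart. Transverse aortic constriction (TAC), which narrows the aorta and makes the heart pump against pressure, or a sham operation was performed at an age of 10 to 12 weeks, and hearts were taken 4 weeks later, at 14 to 16 weeks. In such tissue, fewer cells of a type and less RNA per cell cannot be told apart.

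Fatty acids are the main fuel of the adult heart. They are released from circulating or stored triglyceride, enter the cell, are coupled to coenzyme A, cross into the mitochondrion as carnitine esters and are shortened stepwise by β-oxidation, whose electrons pass to the respiratory chain. The nuclear receptor PPARα, its coactivator PGC-1α and the receptor ERRα are known inducers of these genes. Expression of many of them is known to decline in the overloaded heart. Dnmt3a and Dnmt3b place methyl groups on cytosines in CpG dinucleotides.

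Intensity below denotes the quantile-normalised bead signal, and a difference is a log2 fold change with its standard error (SE). A gene was called when its adjusted p (limma, Benjamini-Hochberg over all probes) was under 0.05 and its fold change exceeded 1.5, and the probe with the highest mean stood for its gene. A probe was treated as dim in a group whose mean lay under 80.8, which is 1.5 times the median intensity. Of the 34 genes, 32 had a brightest probe above that limit in some group, while *Acsl4* and *Cpt1a* were dim in all 4 groups. The deposited sham and TAC arrays differ in their value distribution and were treated as normalised in separate sets. Surgery and normalisation set therefore cannot be told apart in any comparison of TAC with sham. Genotypes were compared within a set and are free of this limit. Sham CTL array 4 stood apart: 517 of 13556 bright probes lay more than 1.5-fold below all other sham arrays there, against 0 to 12 probes on the other 7, and 7 of the 56 bright probes of the fatty acid genes were among them. The skeletal muscle list was raised on sham CTL array 2 (mean deviation 2.15 on the log2 scale), and the atrial list on TAC DKO arrays 2 and 3 (1.27 and 1.83). The overload marker *Nppa* was higher after TAC in DKO (1.32 ± 0.32) and in CTL hearts (2.24 ± 0.32). Its level was 27670 in TAC DKO, 23069 in TAC CTL, 11061 in sham DKO and 4886 in sham CTL hearts. The highest TAC arrays (29615 in DKO, 31764 in CTL) lay near the top of the scale. Of 7 overload check genes, 3 were called higher in DKO and 5 in CTL hearts, with 0 lower. *Ankrd1*, from that list, stood at 11979 in TAC DKO, 13704 in TAC CTL, 12129 in sham DKO and 8969 in sham CTL hearts. The probes of *Dnmt3a* were dim in all groups. The *Dnmt3b* probe above the dim limit averaged 109.6 in TAC DKO, 104.7 in TAC CTL, 101.5 in sham DKO and 112.4 in sham CTL hearts. It was not called between genotypes, and the other *Dnmt3b* probe was dim. The probes of both genes need not lie in the deleted exons, so they do not check the deletion. Of the 6 white fat cell markers with a probe, 5 were dim in all 4 groups, *Adipoq* and *Plin1* among them, and *Lep* averaged 85.6 in TAC DKO, 74.9 in TAC CTL, 61.6 in sham DKO and 63.1 in sham CTL hearts. Of the 3 brown fat cell markers, *Ucp1* and *Elovl3* were dim and *Cidea*, a lipid droplet protein, averaged 416 in TAC DKO, 518 in TAC CTL, 298 in sham DKO and 375 in sham CTL hearts (means on the log scale).

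Fatty acid genes of several steps were called lower after TAC, and no gene was called higher. In DKO hearts 10 of 34 genes were called lower and 0 higher, and in CTL hearts 9 were called lower and 0 higher. Among all named genes, 5.17% were called lower and 3.99% higher in DKO hearts, and 4.2% and 2.74% in CTL hearts. Restricted to the 8394 genes with a probe above the dim limit, those shares were 11.6% lower in DKO hearts and 9.49% lower in CTL hearts, and the 10 and 9 genes were 31.2% and 28.1% of the 32 above that limit. *Cd36*, *Mlycd*, *Hadha*, *Hadhb*, *Hadh*, *Eci1*, *Eci2*, *Etfdh* and *Acot1* were called in both genotypes, and *Acadvl* in DKO hearts alone, where the difference between genotypes in its TAC effect did not pass the test (adjusted p = 0.939). On adjusted p alone, 16 genes were lower and 4 higher in DKO hearts, and 14 lower and 2 higher in CTL hearts, beside 13.9%, 21.3%, 11.6% and 16.4% of all genes. The median log2 fold change over the 34 genes was -0.26 in DKO and -0.15 in CTL hearts. Over the 32 of them above the dim limit it was -0.34 and -0.19, against 0.12 and 0.10 over all genes above that limit. TAC and sham intensities did not overlap for 17 lower genes in DKO hearts (background 10.5%) and 11 in CTL hearts (background 9.14%). These 2 backgrounds are over all named genes, dim ones included, and are not matched to the level of the fatty acid genes. With the arrays shifted to the same median in place of the quantile step, 18 and 16 genes were called lower, and the share of all called probes that were lower was 95.3% and 95.4%, against 63.4% and 65.9% in the main fit.

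**Figure D1:**
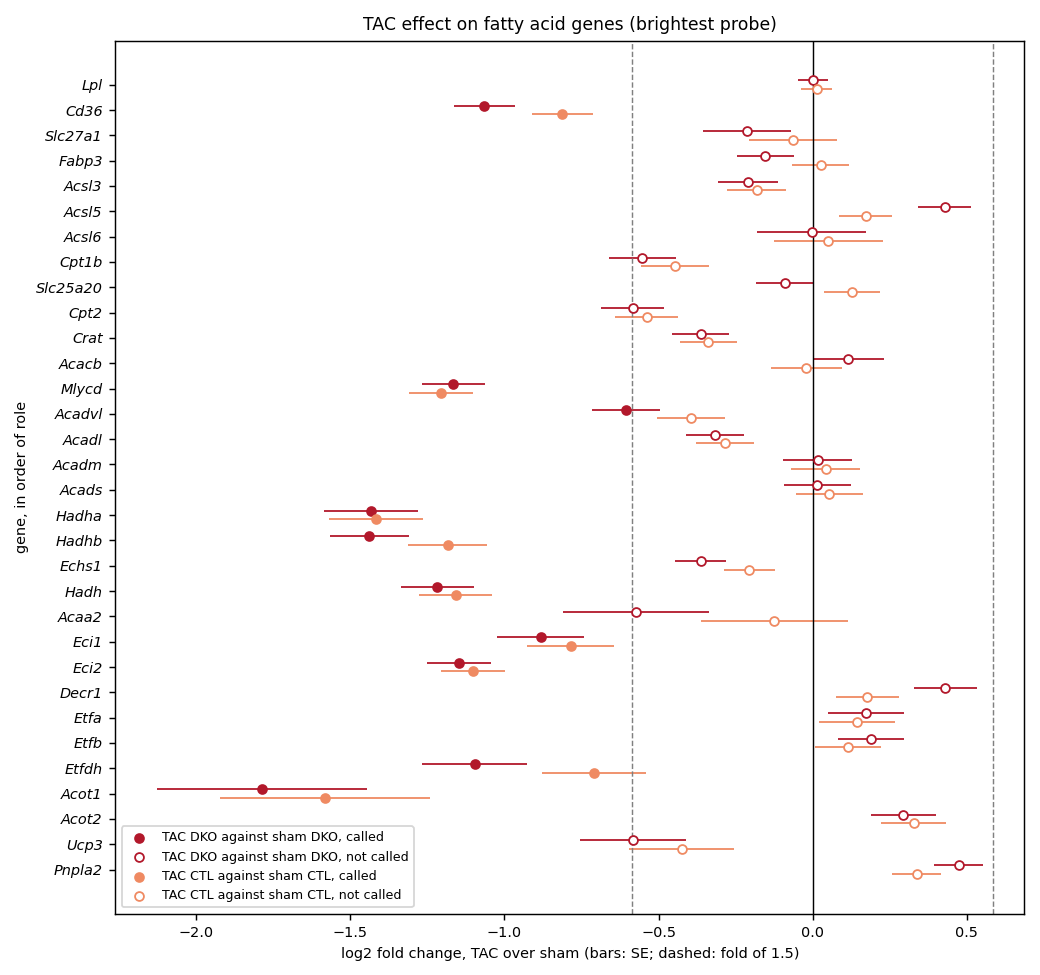
Log2 fold change after TAC with its SE (bars) for the brightest probe of the 32 genes above the dim limit, in DKO and in CTL hearts, by role down the page, with filled points for called genes and dashed lines at a fold of 1.5. Values of *Cd36*, *Hadha* and *Hadh* are as measured, not bounds. *Acot1* (-1.79 in DKO, -1.58 in CTL) and *Hadhb* (-1.44 in DKO, -1.18 in CTL) lie farthest to the left in DKO hearts, while *Acadm*, *Lpl* and *Etfa* lie near 0.

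By their brightest probes, the called genes lay at several steps of the pathway, and no difference between steps was tested. After TAC, 3 of 5 genes of the hydratase, hydroxyacyl-CoA dehydrogenase and thiolase steps and 2 of 3 auxiliary genes for unsaturated chains were called lower in each genotype. Also called lower in each genotype were 1 of 4 genes of uptake and binding, 1 of 2 of malonyl-CoA control, 1 of 3 of the electron transfer flavoprotein pathway and 1 of 2 thioesterases. None of the 4 activation genes and none of the 5 carnitine shuttle genes was called, although 3 shuttle genes passed on adjusted p alone in both genotypes. Among them *Acsl4* and *Cpt1a* were dim in every group, and the activation gene *Acsl1* was not analysed. Among the 4 acyl-CoA dehydrogenases, 1 was called in DKO and 0 in CTL hearts. Neither *Ucp3* nor *Pnpla2*, alone in their roles here, was called. Dimmer probes, still above the limit, were called lower for *Cpt2*, *Etfa*, *Acaa2*, *Acadl* and *Ucp3* in both genotypes and for *Slc25a20* and *Acsl6* in DKO hearts, so these counts hold for the brightest probe alone.

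Both genes were called lower that encode the mitochondrial trifunctional protein, whose α subunit (*Hadha*) hydrates and dehydrogenates long-chain acyl-CoA and whose β subunit (*Hadhb*) is the long-chain thiolase. *Hadhb* intensities were 3432, 3982 and 5801 in TAC DKO hearts (lowest, median and highest of 6), 4045, 5754 and 6176 in TAC CTL hearts, 11666, 11053, 11990.2 and 11129 in sham DKO hearts and 12544, 12665, 12665 and 11277 in sham CTL hearts. All TAC hearts lay below all sham hearts, and the fall was 2.71-fold in DKO and 2.27-fold in CTL hearts (-1.44 ± 0.13 in DKO hearts, adjusted p = 1.68e-08, and -1.18 ± 0.13 in CTL hearts, adjusted p = 3.96e-07). *Hadha* intensities were 51.8, 57.5 and 64.0 in TAC DKO hearts, 49.9, 58.3 and 63.0 in TAC CTL hearts, 209.7, 183, 151 and 101 in sham DKO hearts and 207, 125, 126 and 174 in sham CTL hearts. The *Hadha* probe sank under the dim limit in both TAC groups, so that TAC lay at least 1.92-fold below sham in DKO and at least 1.91-fold below it in CTL hearts (adjusted p = 1.84e-07 and 3.35e-07). Every such bound sets the mean of the bright group against the higher of the dim limit and the dim group's own signal.

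*Hadha* and *Hadhb* are read in opposite directions from a shared start region on chromosome 5 (GRCm38.p6), with start sites 273 bases apart, and their promoter windows share 228 bases. RefSeq windows of 300 bases, 250 before and 50 after the start site, were matched by symbol for 29 of the 34 genes (33 windows). The windows held a median of 17 CpG dinucleotides (range 3 to 36), against 8 over the 27025 genes with a window. The *Hadhb* window is shown because the pair fell together, and that of *Cd36* because it is the CpG-poor one among the called genes, with each CpG in capitals. They held 24 and 3 CpG dinucleotides.
Hadhb, chr5:30155003-30155302, + strand: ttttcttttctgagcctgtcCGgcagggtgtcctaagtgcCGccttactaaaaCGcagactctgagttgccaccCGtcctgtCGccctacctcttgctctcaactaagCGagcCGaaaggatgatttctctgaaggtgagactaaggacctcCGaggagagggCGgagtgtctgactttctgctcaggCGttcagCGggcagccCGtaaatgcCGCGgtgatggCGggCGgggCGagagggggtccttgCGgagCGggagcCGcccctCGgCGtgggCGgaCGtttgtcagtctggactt
Cd36, chr5:17835847-17836146, - strand: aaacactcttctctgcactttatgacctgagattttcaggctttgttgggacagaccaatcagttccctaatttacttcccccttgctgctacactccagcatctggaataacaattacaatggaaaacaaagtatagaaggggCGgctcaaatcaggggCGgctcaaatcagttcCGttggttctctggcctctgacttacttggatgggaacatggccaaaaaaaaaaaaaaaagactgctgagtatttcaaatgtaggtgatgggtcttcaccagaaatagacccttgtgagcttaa

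The windows were also searched on both strands for AGGTCA followed, after 1 base of any kind, by a further AGGTCA (the direct repeat known to bind PPARα with its partner RXR), allowing 2 mismatches. A match was found in 5 of the 29 genes (17.2%), against 4.40% of all genes with a window. The 5 matched stretches follow, with letters that match the repeat in capitals. Those of *Cd36* and *Etfa* are read on the strand opposite to the gene.
Cd36, chr5:17835947-17835959: AaGTCAgAGGcCA
Ucp3, chr7:100472940-100472952: AGGTttcAGGTCA
Echs1, chr7:140116492-140116504: AGGTCAcgGGTCc
Etfa, chr9:55512308-55512320: AGGgCAaAGGTaA
Slc25a20, chr9:108662142-108662154: AGGTgAaAGGTCg
The *Slc25a20* match lies after the start site and the other 4 lie before it. Of the 10 called genes, all with a window, only *Cd36* held a match. TCAAGGTCA, the element known to bind ERRα, was found in *Acsl6* alone (3.45% of the 29 genes, against 0.466% of all genes). A match is a stretch of letters and not a site shown to be bound.

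Of the remaining genes of the spiral, *Hadh*, the short-chain hydroxyacyl-CoA dehydrogenase, was called lower by its brightest probe. *Hadh* intensities were 50.7, 56.7 and 71.4 in TAC DKO hearts, 45.8, 60.9 and 69.7 in TAC CTL hearts, 133, 142, 120.4 and 143 in sham DKO hearts and 143, 148, 141 and 99.2 in sham CTL hearts. Its probe was dim in both TAC groups, and TAC lay at least 1.66-fold below sham in DKO and at least 1.62-fold below it in CTL hearts (adjusted p = 5.02e-08 and 1.61e-07). Its second bright probe had -0.57 in DKO and -0.44 in CTL hearts and was not called in either. *Acaa2* intensities were 1646, 2094 and 2699 in TAC DKO hearts, 1535, 1912 and 2604 in TAC CTL hearts, 3371, 3165, 3112 and 2804 in sham DKO hearts and 2688, 2619, 3199.9 and 894 in sham CTL hearts. *Acaa2*, the thiolase for medium chains, was not called by its brightest probe (-0.57 ± 0.24 in DKO hearts, adjusted p = 0.0759, and -0.12 ± 0.24 in CTL hearts, adjusted p = 0.775), while 3 of its 4 bright probes were called lower in DKO and 1 in CTL hearts. Its sham CTL array 4 stood far below the other sham arrays, and without that array the difference in CTL hearts was -0.54 (adjusted p = 0.0109). *Echs1*, the short-chain enoyl-CoA hydratase, had differences of -0.36 ± 0.08 in DKO and -0.21 ± 0.08 in CTL hearts and was not called.

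The isomerases *Eci1* and *Eci2* move double bonds so that unsaturated chains can enter the spiral, and both fell. *Eci1* intensities were 1593, 2308 and 3043 in TAC DKO hearts, 1932, 2697 and 3432 in TAC CTL hearts, 3944, 4511, 4226 and 4054 in sham DKO hearts and 4490.1, 4518, 4932 and 4671 in sham CTL hearts. *Eci2* intensities were 438, 463 and 582 in TAC DKO hearts, 401, 551 and 619.7 in TAC CTL hearts, 988, 1002, 1080.2 and 1186 in sham DKO hearts and 1061, 1083, 1179 and 1204 in sham CTL hearts. For both genes all TAC intensities lay below all sham intensities. The change in *Eci1* was -0.88 ± 0.14 in DKO hearts, adjusted p = 4.05e-05, and -0.78 ± 0.14 in CTL hearts, adjusted p = 0.000213, and that in *Eci2* was -1.15 ± 0.10 in DKO hearts, adjusted p = 1.92e-08, and -1.10 ± 0.10 in CTL hearts, adjusted p = 5.3e-08. *Decr1*, the dienoyl-CoA reductase for the same chains, had differences of 0.43 ± 0.10 in DKO (adjusted p = 0.00256) and 0.18 ± 0.10 in CTL hearts and stayed under the fold threshold.

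*Mlycd* encodes malonyl-CoA decarboxylase, which removes the inhibitor of fatty acid entry into the mitochondrion. *Mlycd* intensities were 653, 825 and 899 in TAC DKO hearts, 649.7, 811 and 1062 in TAC CTL hearts, 1967, 1773, 1871 and 1673 in sham DKO hearts and 2096, 1860.4, 1967 and 1662 in sham CTL hearts. TAC and sham hearts were fully separated (-1.17 ± 0.10 in DKO hearts, adjusted p = 1.51e-08, and -1.21 ± 0.10 in CTL hearts, adjusted p = 1.49e-08). *Acacb*, which makes malonyl-CoA at the mitochondrial surface, was not called. *Acacb* intensities were 1386, 1632 and 2004 in TAC DKO hearts, 1439.7, 1727 and 2120.4 in TAC CTL hearts, 1590.0, 1493, 1493 and 1537 in sham DKO hearts and 1831, 1466, 1638 and 2382 in sham CTL hearts. The groups overlapped, with differences of 0.12 ± 0.12 in DKO hearts, adjusted p = 0.499, and -0.02 ± 0.12 in CTL hearts, adjusted p = 0.929.

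*Cd36*, a membrane protein through which long-chain fatty acids enter the cell, was the only called gene of uptake and binding. *Cd36* intensities were 50.3, 58.4 and 69.8 in TAC DKO hearts, 56.1, 68.3 and 77.7 in TAC CTL hearts, 109.6, 119.5, 129 and 131 in sham DKO hearts and 114, 112, 118 and 132 in sham CTL hearts. All TAC hearts lay below all sham hearts, and TAC lay at least 1.51-fold below sham in DKO and at least 1.47-fold below it in CTL hearts (adjusted p = 3.08e-08 and 2.08e-06). The measured log2 fold changes were -1.07 ± 0.10 and -0.81 ± 0.10, and with 50 added before the log the value in CTL hearts was -0.52, under the fold threshold. For *Lpl*, the lipoprotein lipase of the capillary wall, intensities were 28273, 29957 and 30738 in TAC DKO hearts, 28273, 30341 and 30738 in TAC CTL hearts, 30341, 29957, 29288 and 29615 in sham DKO hearts and 29957, 30738, 30341 and 27403 in sham CTL hearts. These values sit near the top of the scale, where the highest deposited value was 32485.8. The differences were 0.00073 ± 0.05 in DKO and 0.01 ± 0.05 in CTL hearts, while the second *Lpl* probe, dim in all 4 groups, gave -0.66 and -0.60. *Slc27a1*, a fatty acid transport protein, and *Fabp3*, the heart fatty acid binding protein, had differences of -0.21 ± 0.14 and -0.15 ± 0.09 in DKO and -0.06 ± 0.14 and 0.03 ± 0.09 in CTL hearts.

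The acyl-CoA synthetases analysed here, which couple fatty acids to coenzyme A and do not include *Acsl1*, were not called by their brightest probes. *Acsl3* intensities were 92.5, 126 and 139 in TAC DKO hearts, 97.8, 108 and 111 in TAC CTL hearts, 144, 145, 155 and 115 in sham DKO hearts and 136, 116, 121 and 107 in sham CTL hearts. *Acsl5* intensities were 762, 835 and 978 in TAC DKO hearts, 695, 819 and 884 in TAC CTL hearts, 619, 623, 712 and 560.4 in sham DKO hearts and 611, 776, 769 and 749 in sham CTL hearts. In the adjusted test *Acsl5* was higher after TAC in DKO hearts, under the fold threshold, and all TAC DKO hearts lay above all sham DKO hearts (0.43 ± 0.09 in DKO hearts, adjusted p = 0.000486, and 0.17 ± 0.09 in CTL hearts, adjusted p = 0.167). For *Acsl3* the groups overlapped (-0.21 ± 0.10 in DKO hearts, adjusted p = 0.113, and -0.18 ± 0.10 in CTL hearts, adjusted p = 0.198). The *Acsl6* differences were -0.0038 ± 0.18 and 0.05 ± 0.18, and *Acsl4* was too dim for a fold. A dimmer *Acsl6* probe gave -0.63 in DKO hearts, where it was called lower, and -0.33 in CTL hearts, where it was not.

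By its brightest probe, no gene of the carnitine shuttle passed the fold threshold. *Cpt1b*, the muscle carnitine palmitoyltransferase of the outer membrane, and *Cpt2*, its inner-membrane counterpart, passed on adjusted p alone. *Cpt1b* intensities were 2727, 3595 and 4327 in TAC DKO hearts, 3120.4, 4119 and 4601 in TAC CTL hearts, 5249, 5303, 5333 and 4989.7 in sham DKO hearts and 5416, 5004, 5528 and 5355 in sham CTL hearts. *Cpt2* intensities were 3253, 3902 and 4446 in TAC DKO hearts, 3151, 4337 and 5135 in TAC CTL hearts, 5707, 6115, 6015 and 5453 in sham DKO hearts and 6139.8, 5960.4, 5690.2 and 6375 in sham CTL hearts. In both genes all TAC hearts lay below all sham hearts. Log2 fold changes were -0.55 ± 0.11 in DKO hearts, adjusted p = 0.000449, and -0.45 ± 0.11 in CTL hearts, adjusted p = 0.0042 for *Cpt1b*, and -0.58 ± 0.10 in DKO hearts, adjusted p = 0.000111, and -0.54 ± 0.10 in CTL hearts, adjusted p = 0.000365 for *Cpt2*. *Crat*, carnitine acetyltransferase, had -0.36 ± 0.09 in DKO and -0.34 ± 0.09 in CTL hearts, and *Slc25a20*, the carnitine-acylcarnitine translocase, -0.09 ± 0.09 and 0.13 ± 0.09. A dimmer *Slc25a20* probe gave -0.75 in DKO hearts, where it was called lower, and -0.27 in CTL hearts, where it was not. A dimmer *Cpt2* probe was called lower in both genotypes (-1.29 in DKO and -1.18 in CTL hearts). *Cpt2* passed the fold threshold in DKO hearts when sham DKO array 1 or 4, or TAC DKO array 1, 2, 5 or 6, was left out (-0.58 to -0.62), and in CTL hearts without TAC CTL array 6 (-0.60). *Cpt1b* passed it in DKO hearts without TAC DKO array 5 or 6 (-0.59 and -0.61). *Cpt1a*, the form abundant in liver, was too dim for a fold.

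The acyl-CoA dehydrogenases catalyse the first step of each turn and differ in chain length. *Acadvl*, for very long chains, had intensities of 2965, 4197 and 4593 in TAC DKO hearts, 3936, 4762 and 5801 in TAC CTL hearts, 6355, 5974, 6115 and 5507 in sham DKO hearts and 5875, 5726, 6634 and 6229 in sham CTL hearts. In DKO hearts it lay just inside the fold threshold (-0.60 ± 0.11, adjusted p = 0.000183), while *Cpt2* and *Ucp3* lay just outside, and in CTL hearts it was -0.40 ± 0.11 (adjusted p = 0.0109). Leaving out sham DKO array 1, TAC DKO array 1 or TAC DKO array 4 put it below the threshold (log2 fold changes -0.58, -0.52 and -0.57). The second *Acadvl* probe was called lower in both genotypes (-1.13 in DKO and -0.89 in CTL hearts). *Acadm*, for medium chains, had intensities of 15762, 16609 and 19009.6 in TAC DKO hearts, 14543, 15591 and 17042 in TAC CTL hearts, 17399, 18456, 17667 and 13819 in sham DKO hearts and 15916, 17667, 18630.2 and 10641 in sham CTL hearts. Its groups overlapped and the differences were 0.02 ± 0.11 in DKO and 0.04 ± 0.11 in CTL hearts. *Acadl*, for long chains, had -0.32 ± 0.09 and -0.28 ± 0.09 by its brightest probe, and *Acads*, for short chains, 0.01 ± 0.11 and 0.05 ± 0.11. The other *Acadl* probes gave -0.97 and -0.87 in DKO hearts, both called lower, and -0.42 and -0.63 in CTL hearts, of which the last was called.

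Electrons from the dehydrogenases pass through electron transfer flavoprotein (*Etfa*, *Etfb*) to its ubiquinone oxidoreductase (*Etfdh*). *Etfdh* intensities were 1501, 1899 and 2414 in TAC DKO hearts, 1702, 2276 and 2825 in TAC CTL hearts, 4185, 4226, 4147 and 4069 in sham DKO hearts and 4438, 4185, 4499.8 and 2151 in sham CTL hearts. *Etfdh* was called lower in both genotypes (-1.10 ± 0.17 in DKO hearts, adjusted p = 2.76e-05, and -0.71 ± 0.17 in CTL hearts, adjusted p = 0.00342). TAC and sham intensities were separate in DKO hearts and overlapped in CTL hearts through sham CTL array 4, without which the CTL difference was -0.97. *Etfa* intensities were 16478, 17769 and 21065 in TAC DKO hearts, 15056, 16348 and 20078 in TAC CTL hearts, 17554, 17554, 17042 and 12870.3 in sham DKO hearts and 16608, 17213, 17213 and 10427 in sham CTL hearts. The *Etfa* probe with the highest mean did not pass (0.17 ± 0.12 in DKO hearts, adjusted p = 0.319, and 0.14 ± 0.12 in CTL hearts, adjusted p = 0.459), and its other probes are given with the comparison of probes. *Etfb* had differences of 0.19 ± 0.11 and 0.11 ± 0.11.

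*Acot1* and *Acot2* are thioesterases that split acyl-CoA in the cytosol and the mitochondrion. *Acot1* intensities were 141, 303 and 465 in TAC DKO hearts, 130.1, 284 and 503 in TAC CTL hearts, 1253, 799, 1013 and 723 in sham DKO hearts and 1096, 681, 693 and 953 in sham CTL hearts. TAC and sham hearts did not overlap in either genotype (-1.79 ± 0.34 in DKO hearts, adjusted p = 0.000298, and -1.58 ± 0.34 in CTL hearts, adjusted p = 0.00133). Its second bright probe gave -0.65 in DKO hearts, where it was called lower, and -0.37 in CTL hearts, where it was not called. The genes are near-identical copies, so the assignment of the *Acot1* signal is uncertain, and *Acot2* had 0.29 ± 0.11 in DKO and 0.33 ± 0.11 in CTL hearts. *Ucp3*, an uncoupling protein of the inner membrane, had intensities of 58.3, 85.8 and 109.6 in TAC DKO hearts, 53.5, 78.7 and 105 in TAC CTL hearts, 116, 116, 127 and 135 in sham DKO hearts and 143, 82.0, 117 and 88.1 in sham CTL hearts. It was not called by its brightest probe (-0.58 ± 0.17 in DKO hearts, adjusted p = 0.0125, and -0.42 ± 0.17 in CTL hearts, adjusted p = 0.0802), and its TAC and sham values overlapped in CTL hearts. Without sham DKO array 1 or 2, or TAC DKO array 1, 2 or 3, *Ucp3* was called in DKO hearts (-0.61 to -0.67). Its second bright probe was called lower in both genotypes (-0.79 in DKO and -0.75 in CTL hearts). *Pnpla2*, the lipase that opens stored triglyceride, was higher in the adjusted test and under the fold threshold (0.47 ± 0.08 in DKO hearts, adjusted p = 7.47e-05, and 0.34 ± 0.08 in CTL hearts, adjusted p = 0.00304).

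**Figure D2:**
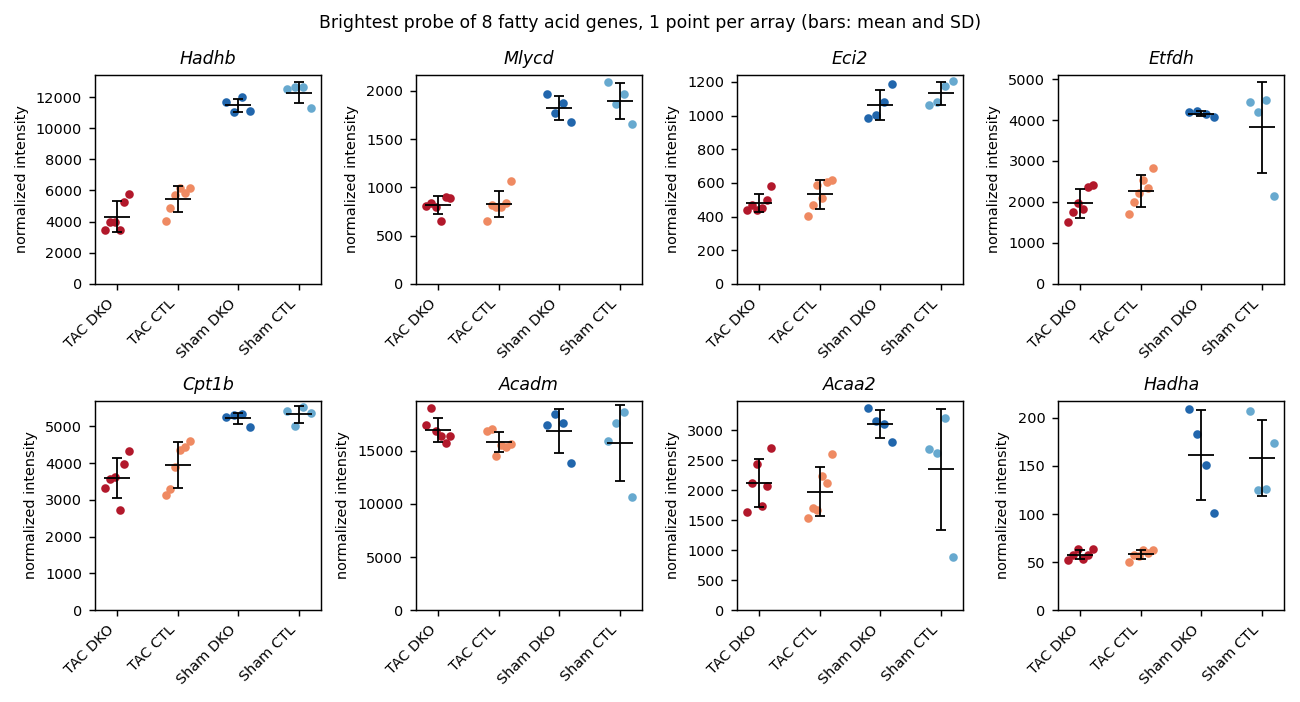
Quantile-normalised intensity (linear axis from 0) of the brightest probe of 8 genes, a point per array, by group from TAC DKO to sham CTL, with bars for the mean and SD. For *Hadhb*, *Mlycd*, *Eci2*, *Cpt1b* and *Hadha* no TAC array reaches a sham array, and the low sham CTL point of *Acaa2* (894) and *Etfdh* (2151) is array 4.

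The direction and size of the TAC difference depended on the probe. Of the 34 genes, 23 had more than 1 probe and 17 more than 1 bright probe. Log2 fold changes of bright probes of the same gene lay more than 1.5-fold apart in 9 of these 17 genes in DKO and 6 in CTL hearts, against 34.5% and 27.4% of the 2623 genes with several bright probes on the array. The median range within a gene was 0.63 in DKO and 0.40 in CTL hearts for the fatty acid genes, against 0.39 and 0.33 for all such genes. The 3 *Cpt2* probes gave -0.58, 0.01 and -1.29 in DKO hearts and -0.54, -0.01 and -1.18 in CTL hearts. The *Etfa* probes gave 0.17, -1.23 and -1.44 in DKO hearts and 0.14, -0.95 and -1.17 in CTL hearts, so the dimmer pair fell while the brightest did not. Of the 4 bright *Etfdh* probes, 3 were called lower in both genotypes and 1 had -0.02 in DKO and -0.10 in CTL hearts. For *Acaa2* the 4 probes ran -1.66 to -0.57 in DKO and -1.33 to -0.12 in CTL hearts. Counting probes, 25 of 56 bright probes were called lower in DKO and 18 in CTL hearts, beside 14.0% and 11.3% of the 13556 bright probes on the array. At least 1 bright probe was called lower for 17 of the 32 bright genes in DKO hearts and 15 in CTL hearts, beside 16.8% and 13.8% of the 8399 genes with a bright probe. Every bright probe was called lower for 8 in DKO hearts (*Cd36*, *Eci1*, *Eci2*, *Hadha*, *Hadhb*, *Mlycd*, *Acadvl* and *Acot1*) and for the first 6 of these in CTL hearts. Those 6 had a single bright probe each. Over the 8399 genes, every bright probe was called lower for 9.42% in DKO and 7.64% in CTL hearts. Of the 17 fatty acid genes with several bright probes, 11 in DKO and 9 in CTL hearts had at least 1 called lower, beside 27.0% and 22.0% of the 2623 such genes, and 2 and 0 had every one called lower, beside 3.24% and 2.33%. With the mean over all probes of a gene in place of the brightest, 15 genes in DKO and 12 in CTL hearts were called lower, beside 3.42% and 2.62% of the 29453 features tested that way. Those features include dim genes and each probe with no symbol or several, so these shares are not matched to the fatty acid genes. The transcript regions that the probes cover were not analysed here.

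**Figure D3:**
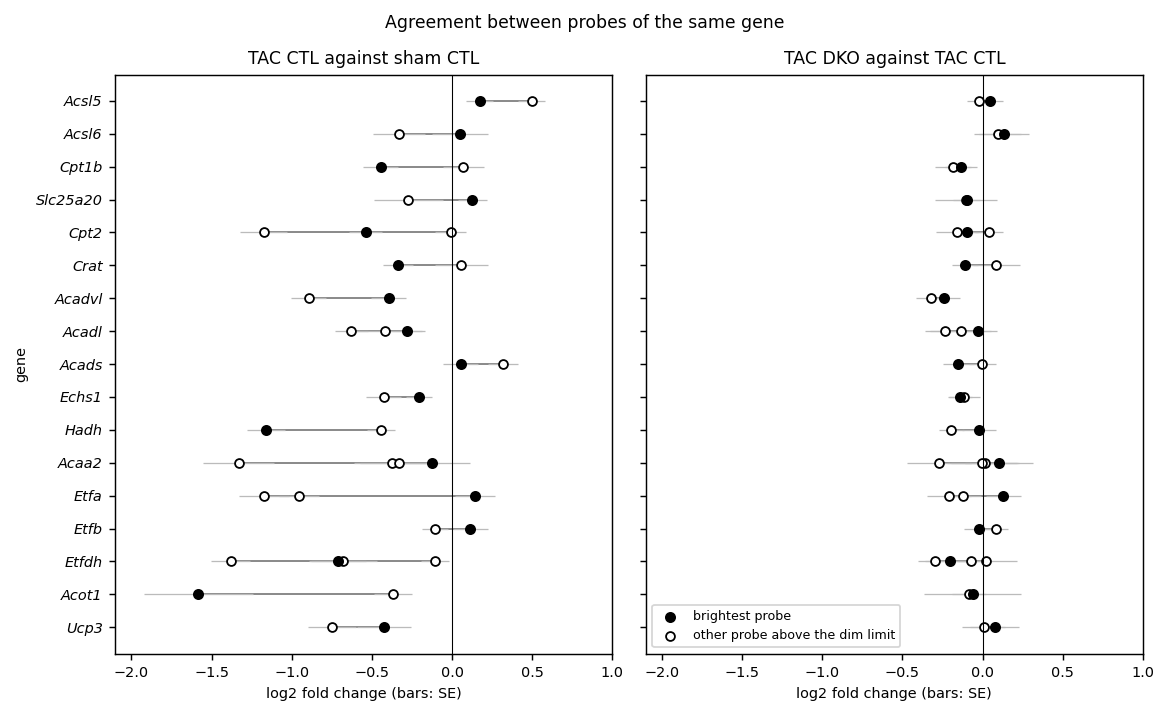
Log2 fold change (bars, SE) of every bright probe of the 17 genes with several, for TAC CTL against sham CTL on the left and TAC DKO against TAC CTL on the right, with filled points for the brightest probe. On the left the probes of *Cpt2*, *Etfa*, *Acaa2*, *Acot1* and *Etfdh* spread over more than 1 log2 unit, while on the right no gene spreads over more than 0.37.

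Between genotypes, no fatty acid gene was called. In TAC hearts 0 of 34 genes were called, in sham hearts 0, and for the interaction of genotype and surgery 0 (smallest adjusted p = 0.322, 0.864 and 0.939). Among all genes, 0.22% were called higher and 0.021% lower in TAC DKO than in TAC CTL hearts, 0.152% and 0.021% in the sham comparison, and 0.0% and 0.00525% for the interaction. Log2 fold changes of the 34 genes ran from -0.35 to 0.19 in TAC hearts and from -0.24 to 0.55 in sham hearts, with medians of -0.03 and 0.0061, against -0.0026 and -0.01 over the genes above the dim limit. At an unadjusted p under 0.05 stood 4 genes in TAC hearts, 2 in sham hearts and 1 for the interaction (11.8%, 5.88% and 2.94% of the 34), beside 11.6%, 6.91% and 5.36% of all genes. Probe by probe, 11 of 74 were at an unadjusted p under 0.05 in TAC hearts and 4 in sham hearts, beside 8.99% and 5.55% of all probes. Probes of the same gene lay more than 1.5-fold apart in 0 of 17 genes in either comparison.

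In TAC hearts the smallest unadjusted p belonged to *Hadhb*, with -0.35 ± 0.12 in DKO against CTL (adjusted p = 0.322). The mean intensity was 4313 ± 980.4 in TAC DKO and 5459.6 ± 839 in TAC CTL hearts (SD, 6 arrays each), and the groups overlapped. Then came *Acadvl* (-0.24 ± 0.10, adjusted p = 0.47), *Cd36* (-0.21 ± 0.09, adjusted p = 0.482) and *Acsl3* (0.19 ± 0.09, adjusted p = 0.521). *Cd36* was dim in both TAC groups, so its value is no fold. The dimmer *Acadvl* probe gave -0.32 (adjusted p = 0.265). In sham hearts the smallest unadjusted p values belonged to *Acsl5* (-0.21 ± 0.09, adjusted p = 0.864) and *Acaa2* (0.55 ± 0.26, adjusted p = 0.89), ahead of *Acsl3* (0.22 ± 0.11) and *Acacb* (-0.24 ± 0.13). The *Acaa2* value rested on sham CTL array 4, without which it was 0.14, and without that array 0 of 34 genes were at an unadjusted p under 0.05 in sham hearts. Sham DKO and sham CTL intensities did not overlap for 2 of 34 genes, *Crat* and *Decr1*, both lower in DKO and not called (-0.09 ± 0.10 and -0.18 ± 0.11), while 2.76% of all genes were lower without overlap. For the interaction the gene at an unadjusted p under 0.05 was *Acsl5* (0.26 ± 0.12, adjusted p = 0.939).

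**Figure D4:**
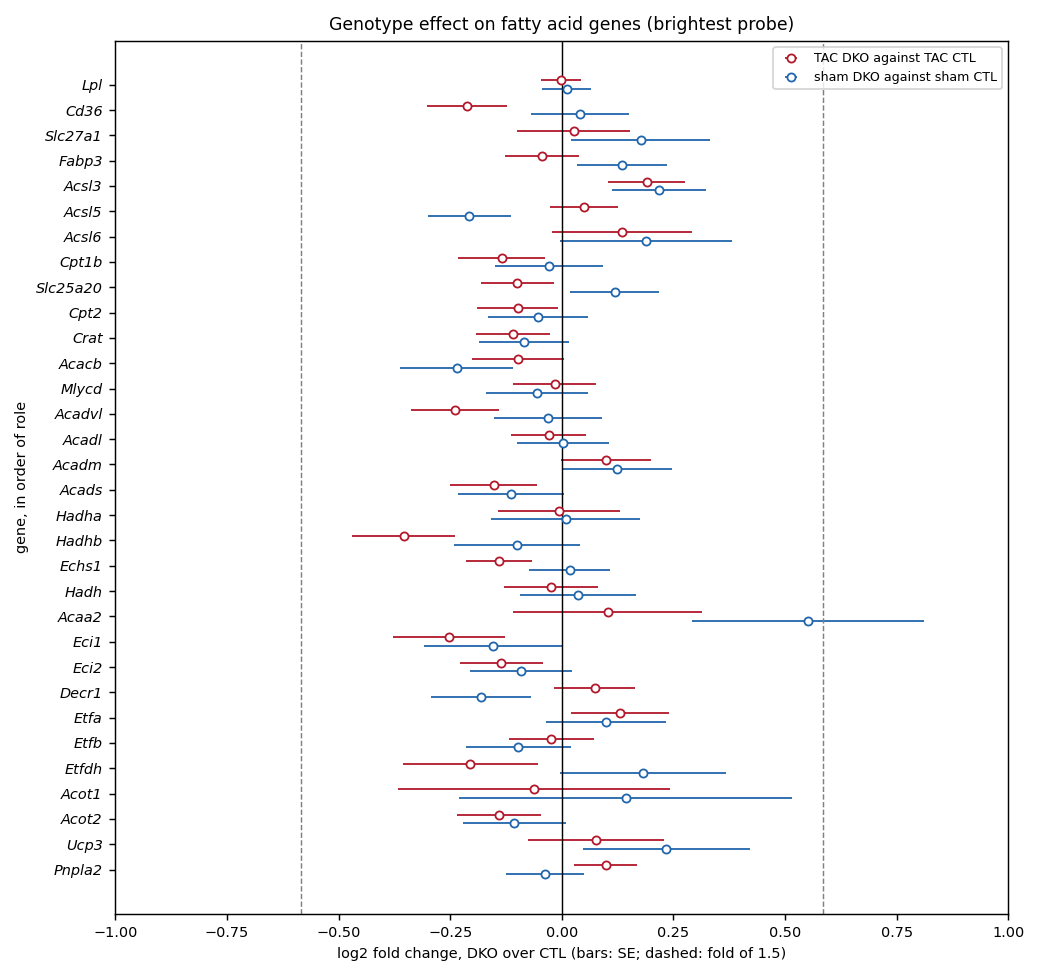
Log2 fold change of DKO against CTL with its SE (bars) for the brightest probe of the 32 genes above the dim limit, in TAC and in sham hearts, by role down the page, with dashed lines at a fold of 1.5. The values lie between -0.35 and 0.55, with *Hadhb* lowest in TAC hearts and *Acaa2* highest in sham hearts.

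Within each group the genes varied from mouse to mouse. The mean log2 deviation of the 34 genes from their mean over all arrays ran from -0.35 to -0.04 over TAC DKO hearts, -0.33 to 0.07 over TAC CTL hearts, 0.17 to 0.27 over sham DKO hearts and 0.12 to 0.27 over sham CTL hearts. These ranges were wider over the 6 hearts of each TAC group than over the 4 of each sham group, and TAC DKO and TAC CTL hearts overlapped over most of their range. The 11 cardiomyocyte markers with a probe ran from -0.32 to -0.01, -0.30 to 0.03, 0.16 to 0.23 and 0.16 to 0.25 in the same 4 groups, and 3 of them (*Tnni3*, *Ryr2* and *Pln*) were called lower after TAC in each genotype. These 3 were 27.3% of the 11, beside 11.6% of all genes above the dim limit in DKO and 9.49% in CTL hearts. *Tnnc1*, *Myl2* and *Casq2* averaged higher after TAC in both genotypes and were not called. The highest TAC DKO arrays of *Tnnc1* (30738) and *Myl2* (31764) lay near the top of the scale. So did the highest sham DKO arrays of *Myl3* and *Atp2a2* (31764 each), which limits what can be read from these markers. *Tnnc1* stood at 28839 in TAC DKO, 28031 in TAC CTL, 21775 in sham DKO and 23236 in sham CTL hearts. *Mybpc3* was called higher in CTL hearts, and its level was 9305 in TAC DKO, 10167 in TAC CTL, 6440.4 in sham DKO and 5942 in sham CTL hearts. The 3 red blood cell markers with a probe were called higher after TAC in both genotypes, as were 4 of 8 smooth muscle and pericyte markers in DKO and 2 in CTL hearts. The red blood cell list ran from 0.12 to 0.83 in TAC DKO, -0.03 to 0.52 in TAC CTL, -0.72 to 0.12 in sham DKO and -1.05 to -0.26 in sham CTL hearts. The smooth muscle and pericyte list ran from -0.02 to 0.37, 0.0011 to 0.34, -0.43 to -0.29 and -0.29 to -0.09 in the same order. Of the 8 leukocyte markers with a probe, 0 were called higher and 2 lower (*Adgre1* and *Lyz2*) in DKO hearts and 1 higher (*Cd52*) and 1 lower (*Lyz2*) in CTL hearts, and the list ran from -0.30 to 0.03, -0.21 to 0.20, 0.13 to 0.24 and -0.03 to 0.25. Of 11 fibroblast and matrix markers, 4 were called higher and 2 lower in DKO hearts and 3 higher and 2 lower in CTL hearts. *Col1a1* and *Fn1* were higher in both, and *Col3a1* and *Dpt* lower in both. *Col3a1* stood at 154 in TAC DKO, 189 in TAC CTL, 319 in sham DKO and 331 in sham CTL hearts. *Dpt* stood at 317, 358, 584 and 636 in that order. The list ran from -0.10 to 0.30, -0.28 to 0.49, -0.26 to 0.11 and -0.26 to -0.02. Of 8 atrial markers, 3 were called higher and 1 lower in DKO hearts and 2 higher and 1 lower in CTL hearts, and the list ran from -0.03 to 1.83, -0.54 to 0.32, -0.30 to 0.27 and -0.77 to -0.66. Between genotypes the atrial marker *Stard10* was called higher in DKO than in CTL hearts, after TAC and after sham. Other markers also differed in level. *Mybphl*, of the atrial list, stood at 254 in TAC DKO, 61.5 in TAC CTL, 441 in sham DKO and 60.8 in sham CTL hearts. *Atp2a1*, of the skeletal muscle list, stood at 241, 61.0, 533 and 164 in that order. Genotypes overlapped for *Mybphl* after TAC and for *Atp2a1* after sham. Of 10 endothelial markers, 1 was called higher (*Vwf*) in DKO hearts and 0 in CTL hearts, with 0 lower, and the list ran from -0.13 to 0.23, -0.09 to 0.08, -0.23 to 0.09 and -0.05 to 0.33. Of 11 skeletal muscle markers, 0 were called in DKO hearts and 1 was called higher (*Mybpc2*) in CTL hearts, and the list ran from -0.15 to 0.09, -0.28 to -0.11, -0.00014 to 0.23 and -0.39 to 2.15. Beside the counts of called markers after TAC, 5.17% of all named genes were called lower and 3.99% higher in DKO hearts. In CTL hearts these shares were 4.2% and 2.74%. The part of the marker shifts in the changes after TAC was not tested.

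**Figure D5:**
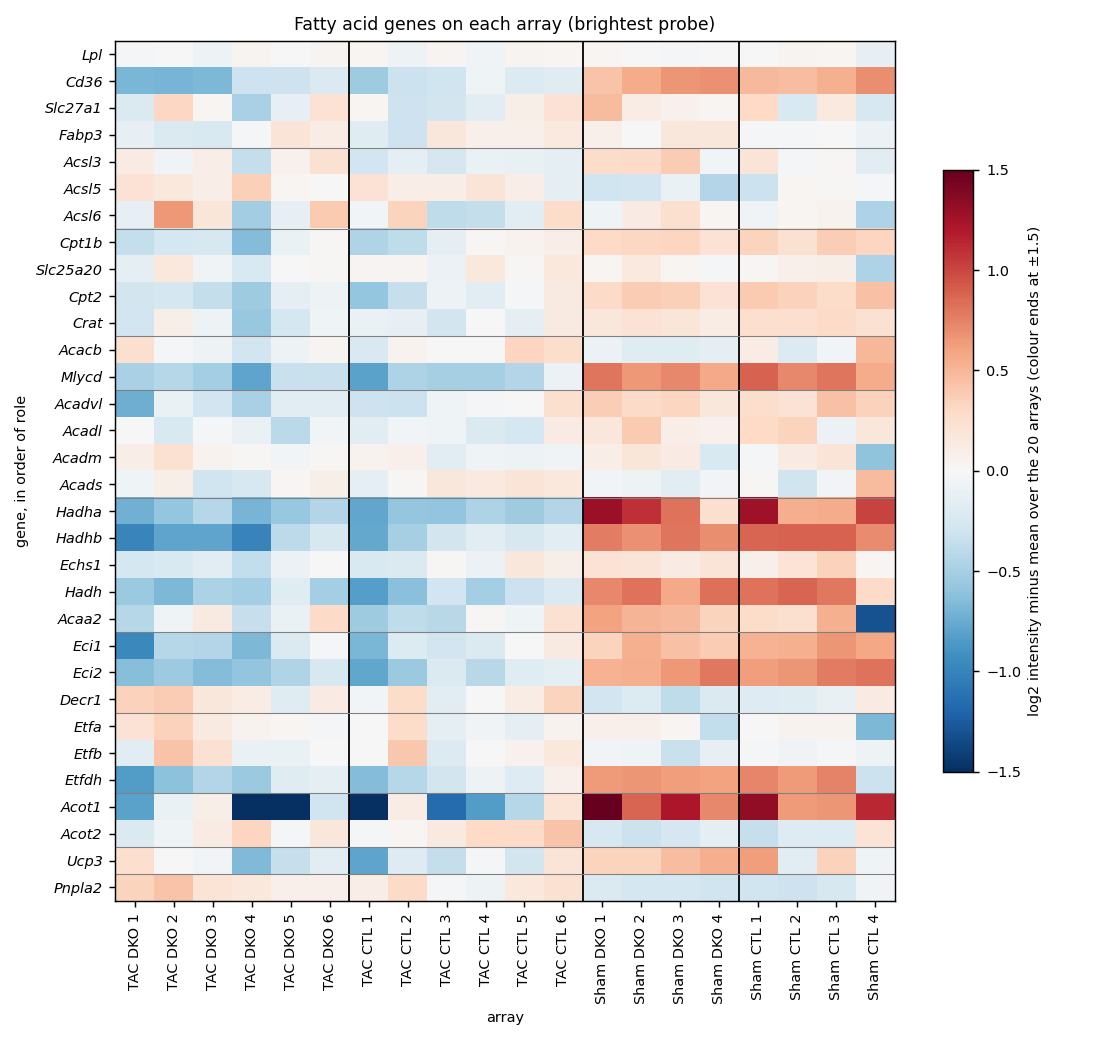
Log2 deviation of the 32 genes above the dim limit on each of the 20 arrays from the mean of each gene over all arrays (colour ends at ±1.5), genes by role down the page and arrays by group from TAC DKO to sham CTL. Sham arrays are high for the called genes, and sham CTL array 4 shows low squares for *Acaa2* and *Etfdh*.

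Neighbouring genes of lipid metabolism were counted in the same way. Of 26 further genes of lipid uptake, storage and lipolysis, 3 were called lower and 0 higher in each genotype, among them *Angptl4*, an inhibitor of lipoprotein lipase (-1.33 ± 0.29 in DKO, -1.26 ± 0.29 in CTL), and *Plin2*, a lipid droplet coat protein (-0.69 ± 0.09 and -0.60 ± 0.09). Of 33 further mitochondrial and peroxisomal oxidation genes, 4 were called lower in DKO and 5 in CTL hearts, with 0 higher, and *Acadsb*, the short/branched-chain acyl-CoA dehydrogenase, had -1.68 ± 0.13 and -1.61 ± 0.13. Among 22 regulators and common PPAR targets, 2 were called lower in each genotype, and 1 higher in DKO and 0 in CTL hearts. Those called lower were *Pdk4*, the kinase that shuts off pyruvate dehydrogenase (-1.63 ± 0.31 and -1.43 ± 0.31), and the transcription factor *Klf15* (-0.81 ± 0.13 and -0.78 ± 0.13). *Ppara* was dim, and *Ppargc1a* (0.13 ± 0.17 and -0.19 ± 0.17) and *Esrra* (-0.13 ± 0.06 and -0.15 ± 0.06) were not called. *Ppargc1b*, the coactivator PGC-1β, was the gene called higher in DKO hearts (0.61 ± 0.10, and 0.52 ± 0.10 in CTL hearts). The difference of that effect between genotypes did not pass (adjusted p = 0.96). Of the genes above the dim limit, those called lower in DKO and CTL hearts were 16.7% and 16.7% of 18 for uptake, storage and lipolysis, 15.4% and 19.2% of 26 for oxidation and 11.8% and 11.8% of 17 for the regulators and targets, beside 11.6% and 9.49% of all genes above that limit.

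The electron transport list held genes of the respiratory chain, which receives the electrons of β-oxidation, and of ATP synthase. In that list 10 of 40 genes were called lower in DKO and 8 in CTL hearts, with 0 higher. These were 27% and 21.6% of the 37 above the dim limit, beside the same 11.6% and 9.49% of all genes. Among them were *Ndufb9*, a complex I subunit (-2.34 ± 0.22 in DKO, -2.20 ± 0.22 in CTL), and *Atp5a1*, the ATP synthase α subunit (-2.30 ± 0.18 and -2.03 ± 0.18). Of 22 glycolysis genes, 3 were called lower and 1 higher in each genotype, and the 3 were 15% of the 20 above the limit. The one called higher was *Pfkp*, the platelet phosphofructokinase (0.82 ± 0.27 and 1.02 ± 0.27). No gene of these lists was called between DKO and CTL in TAC hearts.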

How the data were processed

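RNA of 20 ventricles was measured on Illumina bead arrays with 45281 probes. The authors exported the signals with GenomeStudio 2010.3, per the labels, and deposited quantile-normalised linear intensities. Sorted values agreed within 0.2% for at least 99.9% of probes within the 12 TAC arrays and 97.6% within the 8 sham arrays, and for at most 0.413% across the sets, whose medians were 58.6 (TAC) and 47.5 (sham). The sets differ in their value distribution and were treated as normalised apart. Array number limits the precision.

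Intensities were log2-transformed without an offset, quantile-normalised over all 20 arrays and fitted with limma 3.58.1 (R 4.3.3; 1 mean per group, eBayes, 16 residual degrees of freedom), two-sided, with Benjamini-Hochberg adjustment over all probes. Scripts were tested on simulated data. Symbols came from the platform annotation: 34885 probes had 1 symbol, 18 several and 10378 none. Labels show separate samples, and each is a mouse by the methods.

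The genes and lists were chosen with earlier results of these data known. Values were printed for genes called in any comparison, for the 4 genes with the smallest unadjusted p in each genotype comparison, for *Cd36*, *Cpt1b*, *Acadm*, *Hadha* and *Ucp3*, and for genes whose probes disagreed in sign with a call. Alternatives were the deposited values, a shift to the same median, an offset of 50, a filter on dim probes, no fold threshold, array weights, robust eBayes, 2 groups per fit, the replicate block, the mean of probes, and each array left out. Leaving out sham CTL arrays 2 and 4, or TAC DKO arrays 2 and 3, was added after seeing the data. Promoter sequences are from RefSeq (GRCm38.p6).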

Additional observations from a re-analysis of the deposited data

Results flagged for a closer look

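Of the 80 combinations of a named gene and a group, 8 held an array whose gap to its nearest neighbour exceeded Dixon's limit, and chance gives about 1 in 20. Sham CTL array 4 was lowest in its group for 5 of them. Its intensity was 11277 for *Hadhb* (nearest other 12544), 99.2 for *Hadh* (nearest 141) and 894 for *Acaa2* (nearest 2619). The same array read 10427 for *Etfa* (nearest 16608) and 2151 for *Etfdh* (nearest 4185). *Etfa* also stood low on sham DKO array 4, at 12870.3 (nearest 17042). *Acsl5* was low on TAC CTL array 6, at 695 (nearest 815), and on sham CTL array 1, at 611 (nearest 749). No cause of these values was tested.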

How the results depend on the processing

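After TAC the fatty acid genes kept a median below 0 under every alternative, but its size and the count depended on scaling. With the deposited values the median was -0.44 in DKO and -0.27 in CTL hearts, with 13 and 11 genes called lower. With arrays shifted to the same median it was -0.74 and -0.57, with 18 and 16 called lower. Without a fold threshold 16 and 14 genes were lower and 4 and 2 higher. The median of genes above the dim limit moved from 0.12 and 0.10 to 0.02 and -0.01 (deposited) and to -0.29 and -0.31 (same median). The median of all 34 fatty acid genes, with the 2 dim genes included, lay 0.39 and 0.25 below it in the main fit. Over the 32 genes above the limit the main-fit medians were -0.34 and -0.19. With the deposited values the distance for the 34 genes was 0.45 and 0.26. The shift to the same median moves all probes of an array alike, so it gives that distance again by construction. Without sham CTL arrays 2 and 4, 11 genes (gaining *Acaa2* and *Ucp3*) were called in CTL hearts, with a median of -0.27. Without TAC DKO arrays 2 and 3, 11 were called in DKO hearts (gaining *Ucp3*). Leaving out each array gave 9 to 12 called lower in DKO and 9 to 10 in CTL hearts, with medians of -0.33 to -0.22 and -0.24 to -0.08. In CTL hearts the ends of that range were reached without sham CTL array 4 (-0.24) and without sham CTL array 1 (-0.08), beside -0.15 with all arrays. *Etfa* reversed with the mean of its probes (-0.83 in DKO and -0.66 in CTL hearts). Between genotypes 0 genes were called under every alternative that was run. Whether replicate numbers pair samples was not settled. Deviations of same-numbered DKO and CTL arrays correlated at -0.28 (TAC number 3) to 0.55 (TAC number 6). All but TAC number 3 were above 0, among them sham number 1 (0.36) and TAC number 1 (0.41). For some numbers an array of another number was the closest match. With the replicate block 14 genes were called lower in DKO and 10 in CTL hearts. Offset, dim filter, array weights, robust eBayes and 2-group fits gave 8 to 11 called lower. A dim probe limits what can be read from *Cd36*, *Hadha* and *Hadh* in TAC hearts.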
